A study of Mus musculus with 8 samples.

Results

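The genes described here are 10 feedback inhibitors of the ERK mitogen-activated protein kinase cascade: Dusp1, Dusp2, Dusp4, Dusp5, Dusp6, Spry1, Spry2, Spry4, Spred1 and Spred2. They were picked by name, and each was read from the probe set of highest mean among those annotated with that symbol alone. All 10 were measured, out of 19937 genes on the array with such a probe set. Spred2 had 2 probe sets and the other members had 1 each. The cells were mouse B-lymphoid cells with the strain label SW129/C57BL/6J. RNA of 8 samples, 4 labelled c-jun knock out and 4 labelled wild type, was hybridised to 1 Affymetrix MoGene 1.0 ST array each. The series concerns BCR-ABL induced lymphoid leukemia and the AP-1 transcription factor c-JUN. The labels state neither whether the cells carried BCR-ABL, nor how c-jun was removed, nor the age of the mice, nor whether samples of a genotype were separate animals or cultures. Each p-value thus reflects only how far these samples scatter, and part of that scatter may be technical. Titles follow 2 patterns, RO and D/F, each with 2 knockout and 2 wild-type samples (replicates 1 and 2 of each genotype have RO titles, replicates 3 and 4 D/F titles), and the labels do not say what these title series stand for.

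ERK signalling limits itself. Growth factor and pre-B-cell receptor signals, and the BCR-ABL kinase, pass through RAS, RAF and MEK to ERK, and active ERK raises transcription of its own inhibitors. The dual-specificity phosphatases (Dusp genes) remove phosphate from ERK and related kinases, Sprouty proteins (Spry) act between receptor and RAF, and Spred proteins bring the RAS GTPase activator neurofibromin to the membrane. Because their transcription follows ERK activity, Dusp6, Spry2 and Spry4 are widely read as an output of the pathway. In pre-B acute lymphoblastic leukemia, loss of Dusp6 or Spry2 has been described to impair transformation by oncogenic tyrosine kinases.

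The sequences before the start sites of 4 members are printed below. The motifs searched included elements of stimulus-responsive genes, a GC box and a c-JUN site of the classical kind. Windows of 250 bases ending at the annotated RefSeq start were taken from the mouse build GRCm38.p6 and matched for 8 of the 10 members (Dusp4 and Spry4 were not among them). Capitals mark the cAMP response element (TGACGTCA) and its partial copy (TGACG) in Dusp1, the paired CArG boxes bound by serum response factor in Dusp5, and a GC box (GGGCGG) in Spry1. Other matches were left in lower case, among them the GC boxes of Dusp1 and Dusp5 and a CGTCA in Dusp5. Dusp6 is printed without capitals, since it held 0 matches of any motif searched. The windows lie at chr17:26508473-26508722 on the minus strand (Dusp1), chr19:53528895-53529144 on the plus strand (Dusp5), chr10:99262981-99263230 on the plus strand (Dusp6) and chr3:37639697-37639946 on the plus strand (Spry1).
Dusp1: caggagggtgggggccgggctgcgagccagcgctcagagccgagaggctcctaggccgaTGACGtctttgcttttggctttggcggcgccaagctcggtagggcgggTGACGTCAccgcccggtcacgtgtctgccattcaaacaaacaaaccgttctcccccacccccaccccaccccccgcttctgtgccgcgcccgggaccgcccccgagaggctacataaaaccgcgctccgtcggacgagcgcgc
Dusp5: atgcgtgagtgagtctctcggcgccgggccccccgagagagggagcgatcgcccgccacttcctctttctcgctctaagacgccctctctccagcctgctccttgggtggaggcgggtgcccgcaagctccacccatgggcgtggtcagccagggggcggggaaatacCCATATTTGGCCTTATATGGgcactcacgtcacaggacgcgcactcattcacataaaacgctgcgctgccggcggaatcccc
Dusp6: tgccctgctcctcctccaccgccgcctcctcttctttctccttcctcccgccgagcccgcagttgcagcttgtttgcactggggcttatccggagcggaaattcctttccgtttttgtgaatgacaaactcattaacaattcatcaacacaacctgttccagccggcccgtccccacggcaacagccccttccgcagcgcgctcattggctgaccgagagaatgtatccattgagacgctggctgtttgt
Spry1: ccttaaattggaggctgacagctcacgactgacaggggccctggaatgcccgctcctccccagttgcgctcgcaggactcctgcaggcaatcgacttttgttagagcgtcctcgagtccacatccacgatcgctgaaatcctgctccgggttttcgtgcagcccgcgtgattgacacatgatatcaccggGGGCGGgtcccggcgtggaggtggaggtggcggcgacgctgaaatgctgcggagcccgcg

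Both strands were searched. The AP-1 motif (TGACTCA or TGAGTCA) was found in 0 of the 8 member windows and in 4.46% of all 32851 windows of this length. The full cAMP response element occurred in 1 member window, that of Dusp1, from 143 to 136 bases before the start, and in 1.55% of all windows. A shorter match (TGACG or CGTCA), which the full element contains, was present in Dusp1, Dusp5 and Spred2 and in 17.8% of all windows. Dusp5 held 2 adjoining CArG boxes, 82 to 73 and 72 to 63 bases before the start, and 1.47% of all windows held at least 1. The ETS motif CCGGAAG (or CTTCCGG) was found in 0 member windows against 6.91% of all. For the GC box (GGGCGG or CCGCCC) it was 6 against 32.7% of all. The share of G and C ran from 56% (Spred2) to 70.8% (Spred1) in member windows, where the median of all windows was 52.4%. Whether the members' GC boxes reflect more than this base composition was not tested. All windows together covered 27025 genes, so some genes had more than 1. These are matches of letters in a short window and say nothing about elements elsewhere.

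Jun, the gene targeted, checks the genotype labels. Its log2 signal ran from 6.46 to 7.02 in knockout samples and from 8.77 to 10.55 in wild-type samples, and the groups did not overlap. With 70 ways to assign the arrays, an exact permutation test (2-sided) gave p = 0.0286, the smallest it can give, and the limma adjusted p over all genes was 0.106. Over all genes, 1 was called between genotypes, lower in knockout samples (0.00502% of those tested), and 0 were called higher (0%). The median difference of all genes was -0.11, and it was 0.040 after arrays were centred on their medians, which ranged from 6.93 to 7.42. Small differences below thus depend on how arrays are scaled. What made the array medians differ was not tested.

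Most B-lineage markers had high signals on every array, and most markers of other lineages had low ones. The mean level of 9 B-lineage markers (among them Cd79a, Cd79b, Pax5, Ebf1 and Igll1) ran from 11.56 to 11.92 in knockout samples and from 11.18 to 11.65 in wild-type samples. Of the 9, Rag1 and Dntt varied between samples, from 6.17 to 10.43 and from 6.81 to 10.22. The corresponding ranges of the mean level were 6.91 to 7.14 and 6.76 to 7.61 for 10 myeloid markers, 6.25 to 6.79 and 6.33 to 7.32 for 10 T and NK markers, 6.55 to 7.16 and 6.88 to 7.20 for 6 erythroid and megakaryocyte markers, and 6.66 to 7.12 and 6.74 to 7.39 for 8 stromal markers. Itgam, Csf1r, Cd3d, Cd3g, Cd4, Gata1, Pf4, Dcn and Lum lay below the median of every array, while Lyz2, Fcgr3 and Klrb1c exceeded 10 in at least 1 sample. The part of other cells in the values below was not tested. In RNA from whole samples, fewer cells of a type and less RNA per cell cannot be told apart.

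Between genotypes, 0 of the 10 feedback genes were called after Benjamini-Hochberg adjustment of limma p-values over all genes, where 0.00502% of all genes were, and 0 had an unadjusted p under 0.05, where 2.25% of all genes did. Their differences, knockout minus wild type, ran from -0.39 (Spry1) to 0.39 (Spry4), and 6 of 10 were above 0 against 5582 of all 19937 genes. All 10 members had above-median signal, with 61.0% to 98.3% of all genes at a lower mean. The share above 0 was 8 of 9 for the B-lineage markers, mostly of high signal, and 0 of 10 for the low T and NK markers. Whether the members' share reflects more than their signal level was not tested. The members' median was 0.034. After each array was centred on its median it was 0.19, with 0.040 for all genes, and after quantile normalization 0.0014, with -0.024 for all genes. Adjusted p-values ran from 0.878 to 0.982. A p that misses the threshold does not show equal levels, so each difference is given below with its 95% interval.

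**Figure D1:**
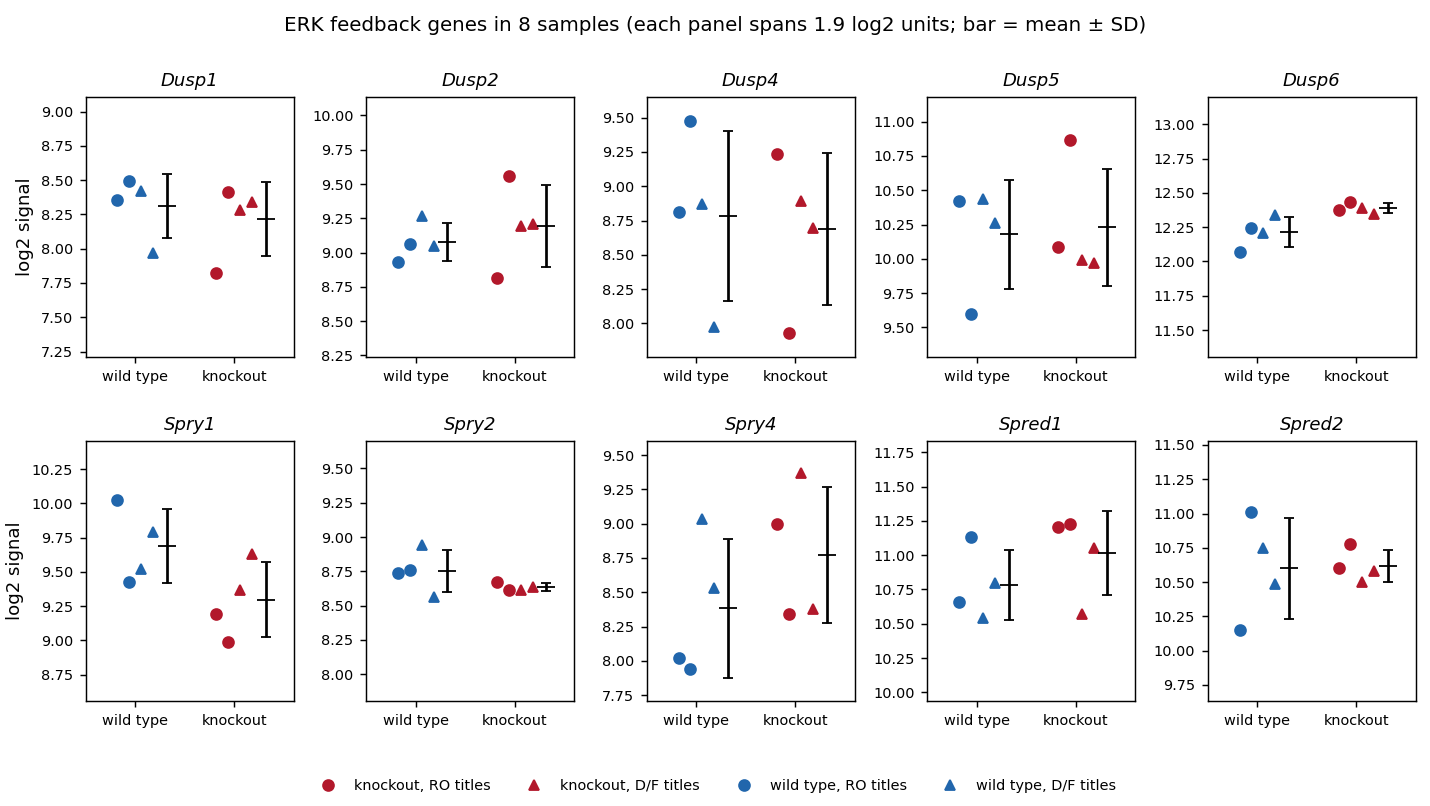
Log2 signal (vertical axes, each spanning 1.9 log2 units) of the 10 feedback genes in 4 wild-type (blue) and 4 knockout (red) samples, with circles for RO and triangles for D/F titles; black bars are the mean ± SD of each genotype. The genotypes overlap in 9 panels, and in the Dusp6 panel all knockout points lie just above the wild-type points.

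Of the phosphatases, Dusp6 is the cytoplasmic one and acts mainly on ERK. Knockout replicates 1 to 4 had log2 signals of 12.38, 12.43, 12.39 and 12.35, and wild-type replicates 1 to 4 had 12.07, 12.25, 12.20 and 12.34. All 4 knockout samples lay above all 4 wild-type samples, by a gap of 0.0099 between the nearest pair. Dusp6 was the 1 member of 10 whose groups did not overlap. Of all genes, 0.266% had all knockout samples above and 1.03% had all knockout samples below. The difference was 0.17 (SE 0.11, 95% interval -0.076 to 0.42), or 1.13-fold, with a limma adjusted p of 0.878. After quantile normalization 0 of 10 members were separated in this direction, where 0.667% of all genes were. Wild type replicate 4 was then at 12.39 and knockout replicates 1 and 4 at 12.34 for Dusp6. Centring on array medians also ended its separation. The signal was steady, with an SD of 0.036 in knockout and 0.11 in wild-type samples, and 5.07% of all genes had a smaller range over the 8 arrays than its 0.36.

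Dusp5, a nuclear phosphatase that is specific for ERK and holds it in the nucleus, was at 10.09, 10.87, 9.99 and 9.97 in knockout replicates 1 to 4. Wild-type replicates 1 to 4 had 10.42, 9.60, 10.43 and 10.26. The highest sample, knockout replicate 2, and the lowest, wild type replicate 2, both had RO titles, and the groups overlapped. The difference was 0.052 (SE 0.24, 95% interval -0.48 to 0.59).

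Dusp4, a nuclear phosphatase of ERK and JNK, varied most of the 10, with a range of 1.55 that 94.2% of all genes fell short of. It was at 9.23, 7.93, 8.89 and 8.70 in knockout replicates 1 to 4 and at 8.81, 9.48, 8.87 and 7.97 in wild-type replicates 1 to 4. Each genotype held 1 sample near 8, and the groups overlapped over most of their range. The difference was -0.096 (SE 0.32, 95% interval -0.80 to 0.61), an interval that admits a 1.5-fold change in either direction.

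Dusp1 and Dusp2 are inducible nuclear phosphatases, the first with a preference for p38 and JNK and the second known from activated lymphocytes. Dusp1 was at 7.82, 8.42, 8.28 and 8.34 in knockout replicates 1 to 4 and at 8.36, 8.49, 8.42 and 7.97 in wild-type replicates 1 to 4. One sample of each genotype, knockout replicate 1 and wild type replicate 4, lay below the others, and the difference was -0.094 (SE 0.19, 95% interval -0.52 to 0.33). Dusp2 was at 8.82, 9.56, 9.19 and 9.21 in knockout replicates and at 8.93, 9.06, 9.26 and 9.05 in wild-type replicates. Both its lowest and its highest signal came from knockout samples, and the difference was 0.12 (SE 0.18, 95% interval -0.27 to 0.51).

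Among the Sprouty genes, Spry1 had the smallest p of all members. Sprouty proteins bind GRB2 and RAF and damp signalling from receptor tyrosine kinases. Spry1 was at 9.20, 8.99, 9.37 and 9.63 in knockout replicates 1 to 4 and at 10.02, 9.42, 9.52 and 9.79 in wild-type replicates 1 to 4. Knockout replicate 4 exceeded wild type replicates 2 and 3, so the groups overlapped. The difference was -0.39 (SE 0.18, 95% interval -0.80 to 0.011), or 1.31-fold, with a limma p of 0.0553 before and 0.878 after adjustment. Within title series the estimate was -0.63 (RO) and -0.16 (D/F).

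Spry4 had an estimate of the same size with the opposite sign. It was at 8.997, 8.34, 9.37 and 8.38 in knockout replicates 1 to 4 and at 8.02, 7.94, 9.04 and 8.53 in wild-type replicates 1 to 4. The difference of 0.39 (SE 0.25, 95% interval -0.16 to 0.94) did not pass (limma adjusted p = 0.878), and wild type replicate 3 lay above 3 of the knockout samples. It was 0.20 without knockout replicate 1 and 0.65 without knockout replicate 4.

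Spry2, the best studied Sprouty gene, was at 8.67, 8.62, 8.62 and 8.64 in knockout replicates 1 to 4 and at 8.74, 8.76, 8.94 and 8.56 in wild-type replicates 1 to 4. Knockout samples spanned less than 0.1 log2 units, and they lay inside the wild-type range. The difference was -0.12 (SE 0.15, 95% interval -0.45 to 0.21), close to the median of all genes, and 0.037 after arrays were centred on their medians. Like Dusp6, Spry2 was steady over the 8 arrays, and 5.83% of all genes had a smaller range than its 0.38.

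The Spred genes both overlapped between genotypes. Spred1, the gene mutated in the human RAS pathway disorder Legius syndrome, was at 11.20, 11.23, 10.57 and 11.05 in knockout replicates 1 to 4 and at 10.66, 11.13, 10.54 and 10.80 in wild-type replicates 1 to 4. Its difference was 0.23 (SE 0.16, 95% interval -0.12 to 0.58). Spred2 was at 10.60, 10.78, 10.50 and 10.58 in knockout replicates 1 to 4 and at 10.15, 11.01, 10.75 and 10.48 in wild-type replicates 1 to 4. Wild-type samples held both its extremes, and the difference was 0.017 (SE 0.18, 95% interval -0.39 to 0.42). The second Spred2 probe set, with signals from 8.74 to 10.01, had a difference of 0.16 (SE 0.25).

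With 1 array left out, the difference changed sign for Dusp1, Dusp2, Dusp4, Dusp5 and Spred2, and kept it for Dusp6, Spry1, Spry2, Spry4 and Spred1. Over those fits it ran from 0.12 to 0.21 for Dusp6, from -0.49 to -0.23 for Spry1, from -0.19 to -0.038 for Spry2, from 0.20 to 0.65 for Spry4 and from 0.12 to 0.35 for Spred1.

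**Figure D2:**
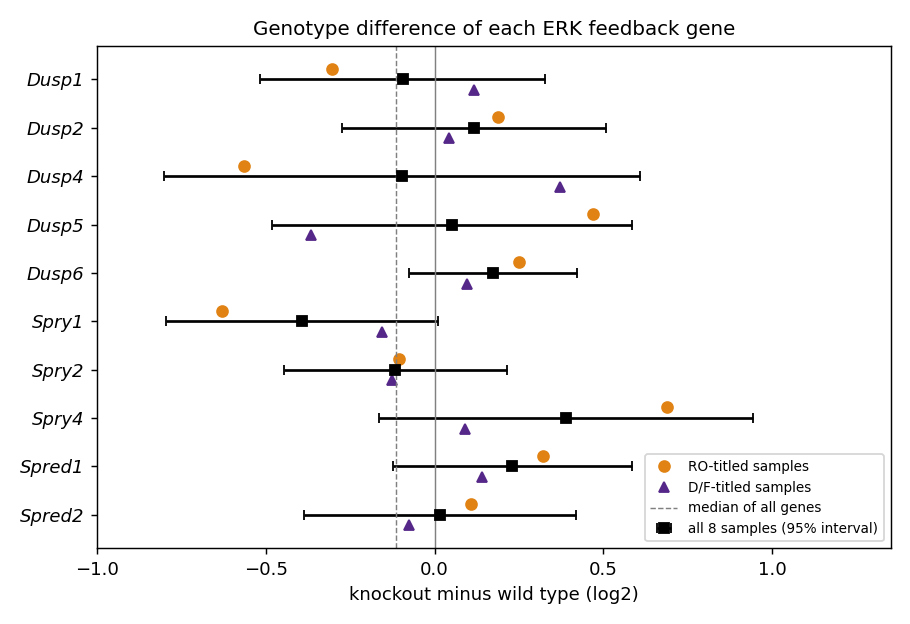
Knockout minus wild type (horizontal axis, log2) for each feedback gene, with the estimate over all 8 samples and its 95% interval (black), the RO-titled samples alone (orange circles) and the D/F-titled samples alone (purple triangles). All 10 intervals include 0, and the RO and D/F points fall on opposite sides of 0 for Dusp1, Dusp4, Dusp5 and Spred2.

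The genotype difference was next compared between title series. Dusp4 had -0.56 in RO and 0.37 in D/F samples, and the interaction was 0.94 (SE 0.60, 95% interval -0.40 to 2.27). Dusp5 had the reverse, 0.47 in RO and -0.37 in D/F samples, with an interaction of -0.84 (SE 0.44, 95% interval -1.80 to 0.13) (limma adjusted p = 0.716). With 1 array left out the interaction kept its sign but ran from 0.28 (without knockout replicate 2) to 1.59 (without knockout replicate 1) for Dusp4 and from -1.25 to -0.42 for Dusp5, where the ends came from leaving out wild type replicates 1 and 2. Dusp1 and Spred2 also had opposite signs, at -0.30 and 0.12 and at 0.11 and -0.076. Of the 10 members, 0 were called for the interaction by limma, where 0.0301% of all genes were, and 0 had an unadjusted p under 0.05, where 5.38% of all genes did.

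Levels were also set against title series. With genotype as a term, D/F minus RO was 0.50 for Spry4 (SE 0.25, 95% interval -0.050 to 1.06) and -0.32 for Spred1 (SE 0.16, 95% interval -0.67 to 0.038), and it lay between -0.25 and 0.17 for the other 8. By limma, 0 of 10 members were called, where 0.0201% of all genes were, and 0 had an unadjusted p under 0.05, where 3.12% of all genes did. RO and D/F samples overlapped in all 10 members. Spry4 was lowest in wild type replicates 1 and 2, both RO, and highest in knockout replicate 3 and wild type replicate 3, both D/F.

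The members were then compared with each other across the 8 samples. Of their 45 pairs, 24 had a Pearson r above 0 and 21 below, and 0 passed Benjamini-Hochberg adjustment of exact permutation p-values over the 45 (the lowest adjusted p was 0.799, and 2 pairs had an unadjusted p under 0.05). Dusp4 and Dusp5 ran opposite to each other, with r = -0.73 (exact permutation p = 0.0418, adjusted 0.799) and Spearman's rho = -0.60 (exact permutation p = 0.132, adjusted 0.781, n = 8). Their r was -0.64 without knockout replicate 2 and wild type replicate 4, -0.69 after centring arrays on their medians and -0.71 with the mean of each genotype and title series removed. Dusp6 and Spry1 had r = -0.75 (exact permutation p = 0.033, adjusted 0.799) and rho = -0.79 (exact permutation p = 0.0279, adjusted 0.781, n = 8). That r was -0.54 without wild type replicates 1 and 3, and -0.16 after centring.

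**Figure D3:**
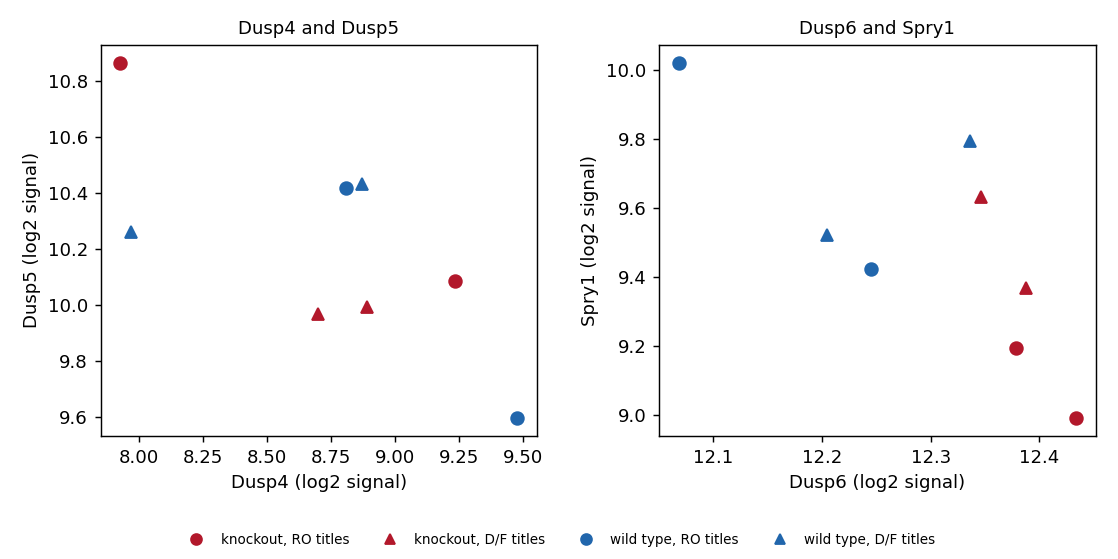
Log2 signals of Dusp5 against Dusp4 (left) and Spry1 against Dusp6 (right), with 1 point per sample, wild type in blue, knockout in red, circles for RO and triangles for D/F titles. Both plots fall from left to right, with knockout replicate 2 at one end of each and wild type replicate 2 (left) or wild type replicate 1 (right) at the other.

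For some pairs the sign turned with the scaling. Dusp6 and Spry2, the steadiest members, had r = -0.64 as deposited (exact permutation p = 0.0913, adjusted 0.799) and 0.72 after centring (exact permutation p = 0.0493, adjusted 0.273, n = 8). After centring, 8 pairs had an unadjusted p under 0.05 and 0 passed. Centring takes the same array medians from both genes of a pair, and this shared term can raise r by itself. The permutation p makes no allowance for it, so the centred values do not show that members vary together. The median r of the 45 pairs was 0.023 as deposited and 0.26 after centring.

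For each member, the gene of most similar pattern was sought among 9482 genes of above-median signal, by Pearson r over the 8 arrays after subtraction of array medians. Picking the best of so many candidates makes a high r likely, and the values describe these arrays only. The subtraction takes the same array medians from both genes, which can also raise r. Without it, r of the same pairs ran from 0.759 to 0.984. Dusp6 was matched by Ube2l3, a ubiquitin-conjugating enzyme (r = 0.996), and Spry1 by Polm, which encodes DNA polymerase mu (0.981). Spred1 was matched by the heparan sulfate sulfotransferase gene Hs2st1 (0.992, or 0.889 without the subtraction). Dusp5 was matched by Klhl14 (0.978), which reached 9.08 in knockout replicate 2 and was at 7.48 to 8.29 elsewhere. Dusp4 was matched by the small GTPase gene Rab31 (0.915), Dusp1 by Siva1 (0.916) and Dusp2 by Dcakd (0.976, or 0.759 without the subtraction). Spry2 was matched by Mocs1 (0.987), Spry4 by Gas2 (0.954) and Spred2 by Zfp827 (0.980).

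The rest of the pathway was read from 6 lists, with 84 of 92 listed genes measured. Of the 84, 0 were called by limma in either direction, where 0.00502% of all genes were. An unadjusted p under 0.05 was found for 4 of them (4.76%), Dusp10, Rasgrp1, Ksr1 and Epha2, and for 2.25% of all genes. The limma adjusted p was 0.878 for each of the 4 genes of smallest p per list. Nf1, Map2k1, Etv4, Etv5, Egr1 and Ccnd1 are named below in addition, chosen after their values were seen, and they did not pass either. As a reference for the lists below, 5582 of all 19937 genes had a difference above 0, and the median of all genes was -0.11. Among 8 other phosphatases of MAP kinases, 3 differences were above 0 and the median was -0.088. Dusp10, which acts on JNK and p38, had -0.46 (SE 0.17), with 7.28 to 7.63 in knockout and 7.63 to 8.06 in wild-type samples. Dusp9 had -0.35 (SE 0.22) and the tyrosine phosphatase gene Ptpn5 -0.26 (SE 0.21), while Dusp7, the cytoplasmic relative of Dusp6, had 0.17 (SE 0.15).

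Among 19 other brakes on receptor and RAS signalling, 5 differences were above 0 and the median was -0.19. Medians of the markers of other lineages ran from -0.20 (stromal) to -0.17 (myeloid), and the B-lineage markers had 0.11. The median of the brakes was -0.041 after centring, with 0.040 for all genes, and -0.14 after quantile normalization, with -0.024 for all genes. Whether the brakes differ from other genes of similar signal was not tested. Spred3, the relative of Spred1 and Spred2, had -0.44 (SE 0.21), and Spry3 had -0.26 (SE 0.18). Lrig1 and Errfi1, inhibitors of the EGF receptor family, had -0.30 (SE 0.16) and -0.30 (SE 0.21). Spry3 and Errfi1 lay below the median of every array, where the size of a difference is uncertain. Other named genes had signals around the array medians, where the same limit applies. Among them were Spred3 (6.61 to 7.71) and Lrig1 here, and Ksr2, Egr2, Plaur and the knockout samples of Rasgrp1 below. Nf1, the RAS GTPase activator that Spred proteins recruit, had 0.15 (SE 0.18).

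Upstream of RAS, 13 adaptors and exchange factors had a median of 0.025, with 9 above 0. Rasgrp1, a RAS exchange factor of lymphocytes, had -1.13 (SE 0.46), with 6.78 to 7.48 in knockout samples and a wide 6.72 to 9.42 in wild-type samples. The adaptor gene Shc1 had -0.23 (SE 0.14) with all knockout samples below all wild-type samples, where 1.03% of all genes had that order, which was kept after quantile normalization and lost after centring. Rasgrp4 had -0.31 (SE 0.22) and Crk 0.24 (SE 0.21). In the kinase cascade, 10 genes had a median of -0.029, with 3 above 0. Ksr1, a scaffold for RAF, MEK and ERK, had -0.72 (SE 0.28), made of -1.34 in RO and -0.093 in D/F samples. Its relative Ksr2 had -0.22 (SE 0.18), Nras 0.23 (SE 0.16), Araf -0.14 (SE 0.17), and the MEK gene Map2k1 -0.043 (SE 0.13).

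Downstream, 23 other genes listed by name as outputs of ERK had a median of -0.13, with 9 above 0, beside -0.11 for all genes. Whether their transcription depends on ERK in these cells was not tested. Epha2, an ephrin receptor gene, had -0.60 (SE 0.18), with 6.65 to 7.67 in knockout and 7.06 to 8.27 in wild-type samples. Egr2 had -0.35 (SE 0.19), the urokinase receptor gene Plaur -0.26 (SE 0.18), and the survival gene Mcl1 0.24 (SE 0.14) with all knockout samples above all wild-type samples, where 0.266% of all genes had that order. The Mcl1 separation, with a gap of 0.012, was lost after quantile normalization and after centring. Etv4 and Etv5, ETS factors that are used beside Dusp6 and Spry4 as an ERK output, had 0.10 (SE 0.21) and 0.16 (SE 0.15). Egr1 spanned 7.14 to 10.26 and Ccnd1 8.64 to 11.75 among knockout samples alone, far wider than Dusp6. The last list, 11 kinases and nuclear factors that ERK acts on, had a median of -0.0032, with Mknk2 at -0.27 (SE 0.18), Ets1 at -0.31 (SE 0.21), Elk3 at 0.19 (SE 0.13) and Creb1 at 0.19 (SE 0.18).

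**Figure D4:**
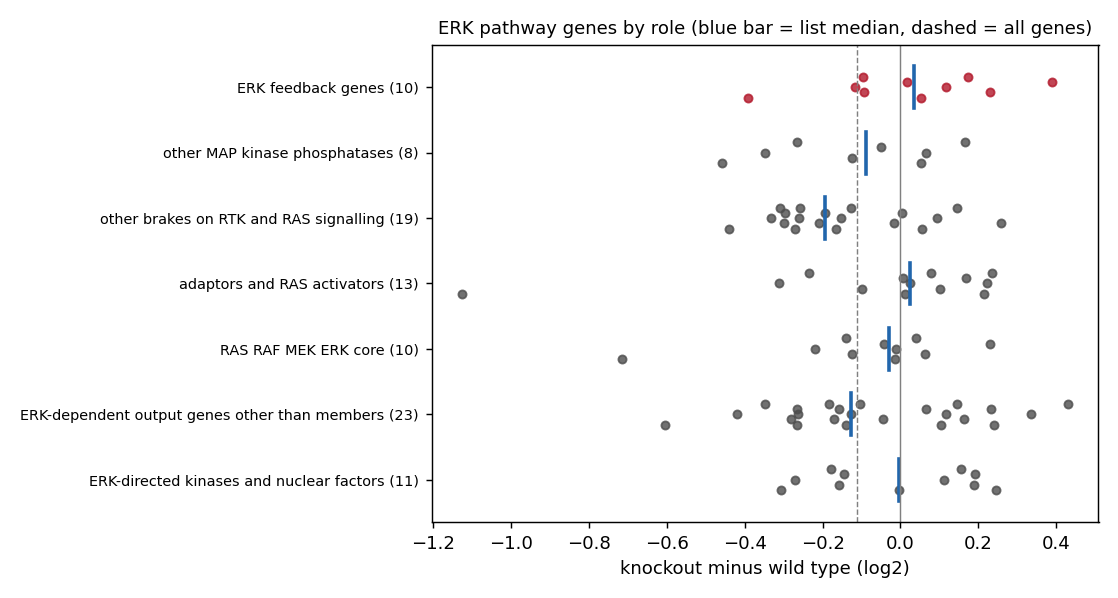
Knockout minus wild type (horizontal axis, log2) of the feedback genes (red) and of 6 other lists of ERK pathway genes (grey, 1 point per gene), with the list median as a blue bar and the median of all genes, -0.11, as a dashed line. List medians run from -0.19 to 0.034, and Rasgrp1, Ksr1 and Epha2 are the points farthest to the left.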

How the data were processed

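Transcript levels of 8 samples were measured on MoGene 1.0 ST arrays. The authors deposited log2 values for 34760 probe sets. MAS5 is the tool named, per the submitters' processing notes, with version and settings not given in the sources used here. Read from the values, the linear mean with 2% trimmed at each end was 500 on every array, which leaves array medians unequal. No detection calls were used. Precision is limited by having 4 arrays a genotype.

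Gene symbols came from GEO's platform annotation (21640 with 1 symbol, 1321 with several, 11799 with none), and the single-symbol probe set of highest mean stood for each gene. Genotype came from the labels, and replicates were numbered in order of deposit. The fit over all genes used limma 3.58.1 in R 4.3.3 (lmFit, eBayes with trend) with genotype and title series as terms, 5 residual degrees of freedom and Benjamini-Hochberg adjustment at 0.05. A second fit added their interaction. The fit was tested on simulated data. These had independent noise for each gene and no shift between arrays or title series. The simulation thus cannot show how the fit responds to array scaling. Intervals are unadjusted 95% intervals of the coefficients. Promoter sequences are RefSeq's.

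The rule named all members, Jun, the 4 genes of smallest p per pathway list and the most similar gene per member. Members and lists were chosen with earlier results of these data known. Alternatives were other scalings, filters and models, each title series alone and each array left out.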

Additional observations from a re-analysis of the deposited data

Results flagged for a closer look

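In 70 groups of 4 samples (35 genes in 2 genotypes), 7 held a sample whose distance from the nearest other was large against the range of its group. Chance flags about 1 in 20 such groups. Among the feedback genes this was Dusp5 in knockout replicate 2, at 10.87 against 9.97 to 10.09 in the other knockout samples. Jun was at 6.46 in knockout replicate 2 against 6.97 to 7.02, and at 10.55 in wild type replicate 3 against 8.77 to 8.84. Dusp7 was at 11.71 in wild type replicate 2 against 12.22 to 12.30, and Spry3 at 6.71 in wild type replicate 3 against 6.09 to 6.17. Rasgrp1 was at 7.48 in knockout replicate 1 against 6.78 to 6.86, and Ksr2 at 6.96 in wild type replicate 4 against 7.36 to 7.37.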

How the results depend on the processing

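In all settings tried, 0 members were called in any comparison. Of 180 member values for genotype under alternatives 18 changed sign, of 140 for title series 15, and of 100 for the interaction 6. The cause of the changes was not tested. For genotype, centring on array medians gave 0.0595 for Dusp1, 0.0575 for Dusp4 and 0.0374 for Spry2. Spred2 had -0.0148 after quantile normalization and -0.19 with array weights. In D/F samples alone Dusp1 had 0.12, Dusp4 0.37, Dusp5 -0.37 and Spred2 -0.0756. Dusp6 had -0.0422 for D/F minus RO after centring.

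With 1 array left out, the genotype difference ran from -0.23 to 0.0668 for Dusp1, -0.0460 to 0.25 for Dusp2, -0.37 to 0.26 for Dusp4, -0.20 to 0.17 for Dusp5 and -0.17 to 0.17 for Spred2. The ends came without wild type replicate 4 and knockout replicate 1 (Dusp1), knockout replicates 2 and 1 (Dusp2), wild type replicate 4 and knockout replicate 2 (Dusp4), wild type replicates 2 and 3 (Dusp5) and wild type replicates 1 and 2 (Spred2). D/F minus RO ran from -0.18 to 0.12 for Dusp1, -0.0468 to 0.25 for Dusp2, -0.61 to 0.0194 for Dusp4, -0.33 to 0.16 for Dusp5, -0.0134 to 0.0634 for Dusp6, -0.0849 to 0.0668 for Spry2 and -0.25 to 0.098 for Spred2. The interaction ran from -0.51 to 0.22 for Dusp2, -0.21 to 0.17 for Spry2, -0.42 to 0.0585 for Spred1 and -0.62 to 0.25 for Spred2.

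Genes called between genotypes numbered 1 in the fit reported, 0 among genes of above-median signal, 2 with array weights, 32 in RO and 79 in D/F samples alone, and 0 to 2 with 1 array left out. Between title series they numbered 4, 0 among genes of above-median signal and 0 to 18 with 1 array left out, and for the interaction 6, 2 after quantile normalization and 6 to 38 with 1 array left out. Centring moved the median genotype difference to 0.19 for the feedback genes, 0.0654 for other phosphatases, -0.0413 for other brakes, 0.18 for adaptors, 0.12 for the kinase cascade and 0.15 for ERK-directed factors. With 1 array left out it ran from -0.0416 to 0.13 for the feedback genes, -0.24 to 0.0179 for other phosphatases and -0.23 to -0.0454 for other brakes. No paired analysis was possible because replicate numbers were given in order of deposit and pair no samples. Pseudocounts do not apply to log2 values.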
